A study of Mus musculus with 6 samples.

Results

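The regions described here are open-chromatin regions far from annotated start sites. Of 58172 regions in the table that the authors deposited, 11474 on autosomes carry no gene identifier and have a centre more than 100 kb from the start site of each of the 12616 protein-coding genes that have a symbol in that table. They are called far regions here. The rule that picks them uses position alone and no measured values, but it was chosen with earlier results of these data known. The assay was ATAC-seq: a transposase, Tn5, cuts DNA that is not covered by nucleosomes and leaves sequencing adapters there. The CSE-KO group held 3 libraries of lung endothelial cells, Cre-positive, with a knockout of CSE (cystathionine gamma-lyase, gene Cth), which makes cysteine from cystathionine. The WT group held 3 libraries of the same cell type, Cre-negative. The labels give no treatment, strain or age, and do not name the promoter that drives Cre or the part of Cth that is removed. They also do not say that the 3 libraries of a group came from separate mice, so the p-values reflect the spread among these libraries alone, which may be technical. Cre is present in the CSE-KO group alone, so its own effect and that of the missing enzyme cannot be told apart.

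Open regions far from genes include enhancers, which bind transcription factors and can act on a promoter over long distances, as well as insulators and open repeats. Long intervals around genes for developmental regulators are known for holding many enhancers. In endothelium, ETS, SOX, GATA and AP-1 factors are known to bind many such elements. A neighbouring gene named for a far region here is its nearest start site in the deposited table on either side, and nearness does not show that the region acts on that gene.

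The far regions fit the name gene desert only in part. Of the 11474, 5247 (45.7%) had their centre inside the body of a RefSeq protein-coding gene, and 6227 (54.3%) lay outside every such body. Exons and introns were not told apart. A body of a gene of the deposited table itself, entered deep from its start, held 3898 of them (34.0%). Outside every RefSeq gene body, noncoding genes and pseudogenes included, lay 5055. RefSeq also places start sites that the table does not have: 2621 far regions lay within 100 kb of a RefSeq protein-coding start and 141 within 1 kb of one, on the chromosomes whose RefSeq promoter windows were used. The distance to the nearest start in the table had a median of 200.6 kb and reached 3239 kb. Their width ran from 152 to 2446 bp with a median of 382 bp, against 390 bp for the 33448 other distal regions, which are all remaining regions more than 1 kb from a start site.

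Sequence of the build is known here where a far region reaches into a RefSeq promoter window of the same build (GRCm38.p6, the assembly of mm10), which runs from 250 bases before to 50 bases after a start. Of the far regions, 200 overlapped such a window, 117 that of a protein-coding gene and 83 that of a long noncoding RNA. Among these 200, 15 were higher (7.5%) and 21 lower (10.5%) in CSE-KO, near the shares over all tested regions (7.70% and 9.60%). The 6 windows printed here belong to the 3 leading rises and the 3 leading falls among the 32 called far regions that cover at least 150 bases of a window, and they were chosen after their values were seen. They show start-site sequence of which 250 to 294 of the 300 bases lie under a far region that opened or closed. Capitals mark matches to any of 9 motifs on either strand, and no 2 matches overlap within these windows. In the windows of Gm33398 and Gm33945 the first match printed lies outside the far region. The first set rose in CSE-KO.
Gm33398: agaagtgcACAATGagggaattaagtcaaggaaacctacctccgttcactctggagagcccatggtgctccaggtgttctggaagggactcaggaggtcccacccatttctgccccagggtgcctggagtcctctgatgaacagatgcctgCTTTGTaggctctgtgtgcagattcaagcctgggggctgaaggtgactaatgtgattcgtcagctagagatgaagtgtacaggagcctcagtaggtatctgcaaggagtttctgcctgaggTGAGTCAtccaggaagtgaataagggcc
Mad1l1: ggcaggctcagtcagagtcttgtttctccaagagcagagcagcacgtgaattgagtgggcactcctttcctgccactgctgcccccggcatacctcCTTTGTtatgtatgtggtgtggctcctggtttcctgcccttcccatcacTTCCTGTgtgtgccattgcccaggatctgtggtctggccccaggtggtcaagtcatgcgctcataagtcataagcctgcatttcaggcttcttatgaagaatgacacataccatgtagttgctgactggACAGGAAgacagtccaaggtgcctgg
Gm30695: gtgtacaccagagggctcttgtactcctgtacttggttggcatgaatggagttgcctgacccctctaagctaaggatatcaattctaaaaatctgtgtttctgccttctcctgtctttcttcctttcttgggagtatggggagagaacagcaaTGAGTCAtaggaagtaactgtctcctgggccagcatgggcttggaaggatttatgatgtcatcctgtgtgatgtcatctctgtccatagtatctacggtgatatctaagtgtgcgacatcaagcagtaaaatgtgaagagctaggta
The second set fell in CSE-KO.
Gm52055: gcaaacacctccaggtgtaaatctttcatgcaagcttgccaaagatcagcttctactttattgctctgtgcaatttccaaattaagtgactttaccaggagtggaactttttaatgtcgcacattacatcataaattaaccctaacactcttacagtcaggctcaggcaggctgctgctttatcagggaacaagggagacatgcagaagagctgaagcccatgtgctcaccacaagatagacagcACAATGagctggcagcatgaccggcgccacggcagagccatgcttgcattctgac
Gm33945: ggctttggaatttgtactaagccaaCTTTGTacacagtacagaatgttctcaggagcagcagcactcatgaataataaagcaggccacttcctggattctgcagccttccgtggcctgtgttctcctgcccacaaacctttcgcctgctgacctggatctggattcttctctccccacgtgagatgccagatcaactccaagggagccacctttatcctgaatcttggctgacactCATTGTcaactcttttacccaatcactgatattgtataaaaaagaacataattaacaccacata
Gm35768: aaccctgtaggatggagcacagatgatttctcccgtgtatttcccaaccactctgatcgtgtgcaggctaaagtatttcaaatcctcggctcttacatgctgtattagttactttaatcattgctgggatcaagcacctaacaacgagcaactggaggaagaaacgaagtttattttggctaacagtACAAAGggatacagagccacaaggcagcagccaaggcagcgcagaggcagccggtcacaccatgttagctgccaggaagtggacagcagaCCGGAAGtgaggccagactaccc
All 6 are printed 5′ to 3′ on the strand of the gene. Mad1l1 encodes a spindle checkpoint protein and this window is one of its alternative starts, and the other 5 belong to long noncoding RNAs.

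The AP-1 motif, searched as TGANTCA, stood in the windows of Gm33398 and Gm30695, 2 of the 3 that rose, and in none of the 3 that fell, and 7.81% of all 32851 RefSeq windows hold it. The ETS motif was searched as CCGGAAG, which stood in the window of Gm35768, which fell. Its other form, ACAGGAA, stood 2 times in the window of Mad1l1, which rose, and 16.8% of all windows hold either form. The SOX motif, searched as ACAAAG and also in the form ACAATG, stood in all of the 6 except Gm30695, and 28.6% of all windows hold it. No match was found in these 6 windows to the other motifs, named here with their share of all windows. The GATA motif, searched as AGATAA, stands in 11.2% of windows and the TEAD motif, searched as GGAATG, in 14.7%. The cyclic AMP response element (CRE), searched as TGACGTCA, stands in 1.79%, and the KLF motif, searched as GGGCGTGG, in 5.33%. The longer CTCF and NFI motifs stand in 1.32% and 0.0365% of windows. Such matches are descriptions of letters, from few windows.

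The region at the Gm33398 start (window chr7:129764621-129764920, minus strand) had 52, 60 and 56 in CSE-KO and 26, 9 and 15 in WT, a 3.49-fold rise (adjusted p = 0.0161). That at the Mad1l1 window (chr5:140174869-140175168, minus strand) had 142, 100 and 84 in CSE-KO and 40, 31 and 25 in WT, a 3.30-fold rise (adjusted p = 0.00846). That at Gm30695 (chr16:93493224-93493523, minus strand), between Runx1 and Setd4, had 62, 32 and 54 in CSE-KO and 10, 15 and 18 in WT, a 3.25-fold rise (adjusted p = 0.0141). At these 3 regions every CSE-KO library lay above every WT library. The region at Gm52055 (chr13:32233957-32234256, plus strand), inside the body of Gmds, had 59, 29 and 71 in CSE-KO and 163, 190 and 159 in WT, a 3.38-fold fall (adjusted p = 0.0149). That at Gm33945 (chr10:21573711-21574010, minus strand), between Hbs1l and Sgk1, had 13, 18 and 13 in CSE-KO and 46, 52 and 53 in WT, a 3.31-fold fall (adjusted p = 0.00394). That at Gm35768 (chr6:146170676-146170975, plus strand), inside the body of Itpr2, had 20, 9 and 10 in CSE-KO and 44, 33 and 38 in WT, a 2.96-fold fall (adjusted p = 0.0168). Here every CSE-KO library lay below every WT library. Values are the deposited ones, which the authors scaled between libraries, and each adjusted p is limma's, with Benjamini-Hochberg adjustment over all 58129 tested regions.

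Over all regions the deposited values summed to 5437296 to 5547417 in CSE-KO and 5242490 to 5368491 in WT. The files give no read counts, so exact depth is not known from them. The CSE-KO columns skip 35 to 39 of the whole numbers up to 100 and the WT columns skip 0. If the values are read counts divided by a size factor, the CSE-KO counts were scaled up and rest on fewer reads than those of WT. Depth then differs with group, and the 2 cannot be told apart. The promoter region of Cth had 11, 6 and 2 in CSE-KO and 195, 157 and 167 in WT, which fits the labels. Of 11 endothelial markers, 9 had a promoter region, with a summed value of 1376 to 1572 in CSE-KO and 1199 to 1274 in WT, and Pecam1 and Sox17 had none. Promoter regions were found for 4 of 9 mural and fibroblast markers (summing to 254 to 281 in CSE-KO and 198 to 204 in WT), for 2 of 8 lung epithelial markers (54 to 80 in CSE-KO and 53 to 59 in WT) and for 2 of 8 leukocyte markers (175 to 186 in CSE-KO and 247 to 284 in WT). The part of these markers in the results was not tested, and in bulk libraries fewer cells of a type and less open chromatin per cell cannot be told apart.

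Far regions changed in both directions in nearly equal number. Of the 11459 tested, 1270 (11.1%) were higher and 1290 (11.3%) lower in CSE-KO, 2560 (22.3%) in all. Over all tested regions 7.70% were higher, 9.60% lower and 17.3% called, and over the other distal regions 7.52% were higher, 11.5% lower and 19.1% called. The share of far regions called lower was thus near that of other distal regions, and the share called higher was above it. At least 2-fold higher were 865 far regions (7.55%) and at least 2-fold lower 854 (7.45%), against 4.32% and 5.93% of all tested regions and 4.28% and 7.20% of other distal regions. The median log2 change was -0.04 in far regions, 0.00 over all tested regions, -0.06 in other distal regions and 0.11 in promoter regions. A call needs a low spread, so the libraries were also compared by order alone. All 3 CSE-KO libraries lay above all 3 WT libraries at 2360 far regions (20.6%) and below them at 2571 (22.4%), which makes 4931 (43.0%) without overlap. These shares were 19.0%, 20.5% and 39.5% over all tested regions and 16.4%, 23.2% and 39.6% over other distal regions.

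The count of calls rested on each WT library. Without WT replicate 1, 2 or 3 it was 1045, 1022 or 1004, with 608, 590 or 552 higher and 437, 432 or 452 lower, so that higher calls outnumbered lower ones. Calls dropped likewise over all tested regions, from 17.3% to 6.2%, 6.34% or 6.06%, so the drop is not particular to far regions. Scaled to each library's total, 1144 were higher and 1464 lower, with 17.7% of all tested regions called. That total includes 6 regions with values over 10000. With these left out of it, 1295 were higher and 1252 lower, with 17.3% of all tested regions called. Other counts scaled to the total given below include the 6 regions. Without any 1 of the CSE-KO libraries the count of far regions called ran from 2209 to 2282, with 1019 to 1074 higher and 1174 to 1253 lower. Of all tested regions 14.5% to 15.3% were then called. The spread within a group differed as well, since the residual SD of far regions on the log2 scale was 0.529 in CSE-KO and 0.333 in WT. A value of 0 was listed at 50, 52 and 55 far regions in the CSE-KO libraries and at 8, 3 and 2 in the WT libraries. The part of this difference in spread in the counts was not tested.

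As a share of all values, far regions held 12.38%, 11.98% and 11.98% in CSE-KO and 13.1%, 13.15% and 12.78% in WT, or 12.1% ± 0.231 and 13.0% ± 0.201 (SD, n = 3 each), a difference of -0.897 percentage points. Every CSE-KO library lay below every WT library. Other distal regions held a mean of 42.84% in CSE-KO and 44.48% in WT, so a lower share was not particular to far regions. The table holds 6 regions with values over 10000, and with them left out of the total the shares were 12.8% ± 0.234 in CSE-KO and 13.1% ± 0.223 in WT, a difference of -0.30 points. The groups then overlapped, with 13.09%, 12.67% and 12.7% in CSE-KO and 13.23%, 13.26% and 12.86% in WT. The median value of a far region was 39, 38 and 38 in the CSE-KO libraries and 36, 37 and 35 in the WT libraries. The median of the values was thus higher in CSE-KO, where the totals, with the 6 regions over 10000 included, were also larger. The median log2 change of far regions was slightly negative, as given above.

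The balance of rises and falls turned with distance. From 100 to 150 kb from the nearest start, 8.08% of 3565 far regions were higher and 12.3% lower. From 150 to 200 kb 9.90% were higher and 11.5% lower, from 200 to 300 kb 11.3% and 11.9%, and from 300 to 500 kb 12.5% and 10.1%. From 500 to 1000 kb 16.2% were higher and 9.08% lower, and beyond 1000 kb 21.8% of 344 were higher and 9.01% lower. Higher calls thus took a larger share in each further band, while the share of lower calls changed less. Nearer regions without a gene identifier had 6.91% higher and 10.1% lower within 10 kb, 7.21% and 12.1% at 10 to 50 kb, and 7.97% and 12.7% at 50 to 100 kb. By order alone, all CSE-KO libraries lay above all WT libraries at 17.2% of far regions at 100 to 150 kb and at 33.7% of those beyond 1000 kb, and below them at 24.9% and 16.3%. The median log2 change was -0.10 at 100 to 150 kb and 0.23 beyond 1000 kb.

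**Figure D1:**
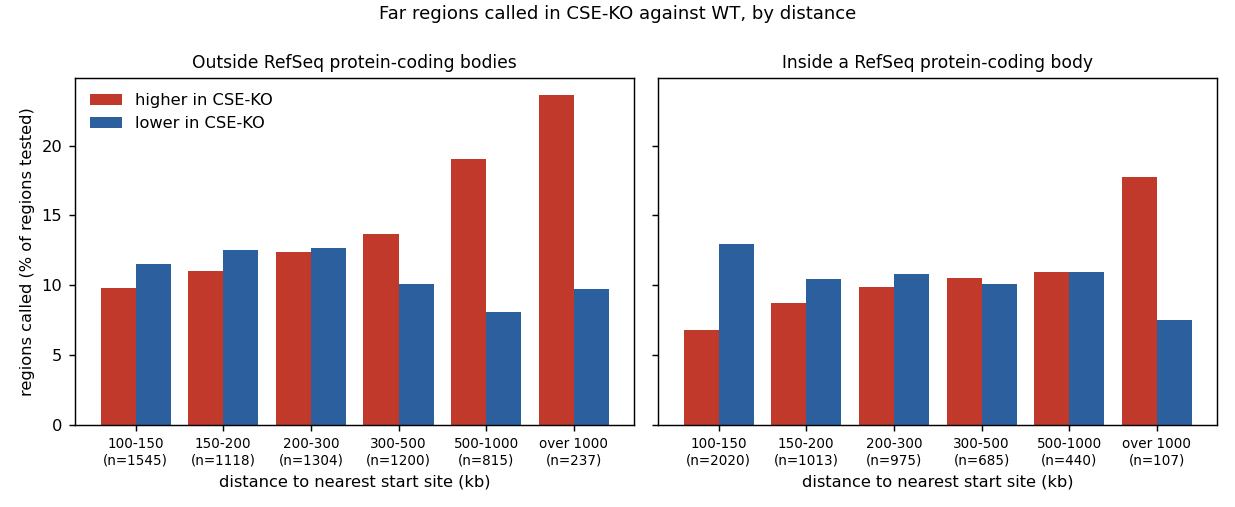
Percent of tested far regions called higher (red) and lower (blue) in CSE-KO against WT, by distance in kb to the nearest start site, with the number tested in brackets. Outside gene bodies the share called higher climbs from 9.77% to 23.6%, while inside them it stays between 6.78% and 10.9% up to 1000 kb and is 17.8% beyond.

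The share called higher was larger outside gene bodies than inside them in each distance band, without a test of that difference. Outside RefSeq protein-coding bodies the higher share was 9.77% at 100 to 150 kb, 19.0% at 500 to 1000 kb and 23.6% beyond 1000 kb, and the lower share was 11.5%, 8.10% and 9.71%. Inside such bodies the higher share was 6.78%, 10.9% and 17.8%, and the lower share 12.9%, 10.9% and 7.48%. The median log2 change was -0.08 in the nearest band and 0.21 in the farthest outside bodies, and -0.11 and 0.25 inside them. In all, 810 of 6219 far regions outside bodies were higher and 693 lower, and 460 of 5240 inside bodies were higher and 597 lower. Beyond 500 kb, 278 of 1599 far regions were higher and 145 lower. Leaving out WT replicate 1, 2 or 3 gave 128, 122 or 112 higher and 50, 44 or 52 lower there. The same leave-outs gave 139, 137 or 128 higher and 147, 154 or 153 lower at 100 to 150 kb, so higher calls outnumbered lower ones beyond 500 kb and not at 100 to 150 kb in each of these fits. Scaled to each library's total, the counts beyond 500 kb were 250 higher and 164 lower. The difference between distance bands was not tested.

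Narrow far regions tended up and wide ones down. Among 4 width classes of about equal size, in the narrowest, up to 276 bp, 14.8% were higher and 5.21% lower. In the next class, up to 382 bp, 12.5% were higher and 8.23% lower, and in the one up to 525 bp 10.1% and 12.7%. In the widest class, over 525 bp, 6.97% were higher and 18.9% lower. Other distal regions of the same widths ran the same way, from 9.94% higher and 6.41% lower in the narrowest class to 4.63% and 17.6% in the widest. The lower shares of far and other distal regions were therefore close at each width, and the higher share of far regions was the larger in each width class. The higher share was larger beyond 500 kb than at 100 to 200 kb in each of the 4 width classes. Only the class up to 525 bp passed from more falls to more rises. It had 8.48% higher and 13.7% lower at 100 to 200 kb, and 13.0% higher and 10.05% lower beyond 500 kb. The class up to 382 bp had 10.2% higher and 8.99% lower at 100 to 200 kb, and 20.4% higher and 6.25% lower beyond 500 kb. In the narrowest class 23.3% were higher and 5.36% lower beyond 500 kb, and 11.5% higher and 5.33% lower at 100 to 200 kb. In the widest class 11.7% were higher and 15.3% lower beyond 500 kb, and 5.09% higher and 19.7% lower at 100 to 200 kb. Leaving out WT replicate 1, 2 or 3, the narrowest class had 234, 229 or 217 higher and 38, 42 or 42 lower, and the widest 86, 73 or 65 higher and 199, 196 or 206 lower. The median width was 373 bp beyond 500 kb and 387.5 bp at 100 to 150 kb.

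Width goes with signal, and the share of far regions called lower climbed with the mean value as it did with width. The share called higher ran differently, being smallest in the class of lowest mean value but largest in the narrowest class. With all tested regions split into 5 equal classes by their mean over the 6 libraries, the weakest class had 5.68% of far regions higher and 6.91% lower, and the second 14.4% and 8.92%. The third had 14.9% higher and 12.9% lower, the fourth 12.1% and 15.0%, and the strongest 6.63% and 19.5%. In the strongest class other distal regions had 3.84% higher and 17.9% lower. The number of cells or reads behind each value was not available, so the part of depth in these shares was not tested.

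**Figure D2:**
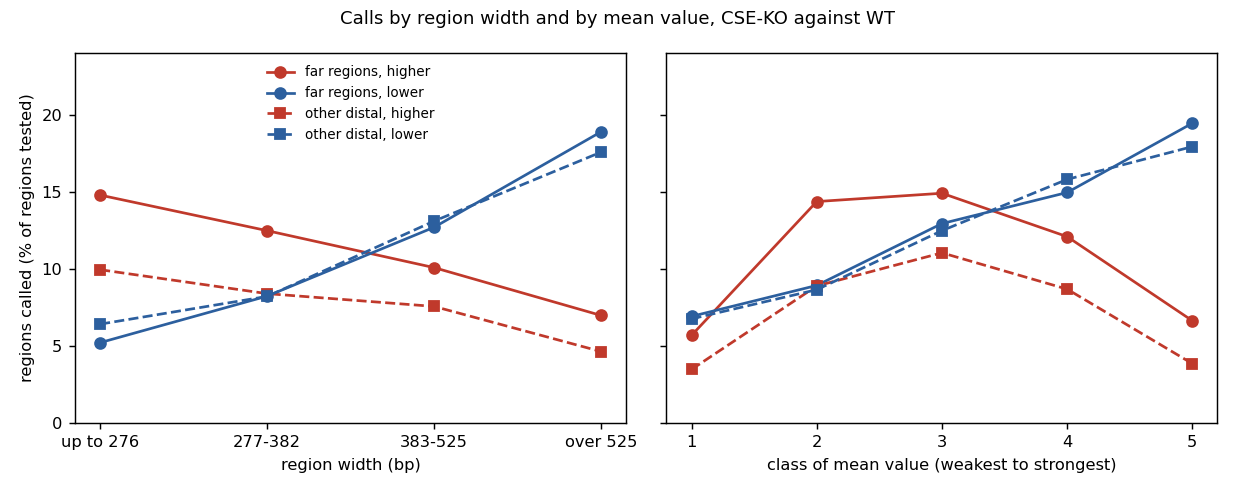
Percent of tested regions called higher (red) and lower (blue) in CSE-KO against WT, for far regions (circles, solid) and other distal regions (squares, dashed), in 4 classes of region width in bp on the left and 5 classes of mean value on the right. Lower calls climb with width to 18.9% in far regions and 17.6% in other distal regions, and the red solid line lies above the red dashed one in every class.

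Single far regions rose by more than 10-fold. The region chr12:74803920-74804505 lies between Gm11042 and Rhoj, which encodes a small GTPase of endothelial cells, 504.1 kb from the Rhoj start. It had 768, 984 and 856 in CSE-KO and 72, 43 and 55 in WT, and the log2 change was 3.94 ± 0.23 (SE), or 15.3-fold (adjusted p = 0.000866). The lowest CSE-KO value lay far above the highest WT value. The region chr7:12010442-12011877, between the zinc finger genes Zik1 and Znf551, had 253, 234 and 244 in CSE-KO and 16, 22 and 12 in WT, a 14.2-fold rise (adjusted p = 0.000949). The region chr17:13305986-13306236, between Sod2, the mitochondrial superoxide dismutase, and Afdn, a junction adaptor, had 172, 184 and 177 in CSE-KO and 13, 21 and 6 in WT, a 13.8-fold rise (adjusted p = 0.00339). A second region of the same interval, chr17:13589951-13591523, rose 9.92-fold. The groups stayed far apart at each of these.

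The next of the leading rises included chr12:67059173-67059877 inside Mdga2, a membrane-anchored adhesion protein, which rose 12.1-fold, with 286, 352 and 354 in CSE-KO and 33, 25 and 22 in WT. The region chr4:64497734-64498059 lies between Tnc, the matrix protein tenascin C, and Pappa, a protease of IGF-binding proteins. It had 327, 331 and 292 in CSE-KO and 44, 39 and 28 in WT, an 8.49-fold rise (adjusted p = 0.00131). A region between Pex2 and Pkia, chr3:5860556-5860823, had 90, 193 and 85 in CSE-KO and 13, 14 and 17 in WT, a 7.38-fold rise, and its CSE-KO values were uneven, with replicate 2 the highest. The strongest far region by mean value, chr6:103649064-103649291 inside Chl1, a neural adhesion gene, had 2013, 1960 and 1906 in CSE-KO and 411, 277 and 233 in WT, a 6.55-fold rise (adjusted p = 0.00243).

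A further 4 of the 12 leading rises had no gene of the table between them and the start of the chromosome. The region chr13:3372906-3373586, 164.8 kb from Gdi2, had 234, 282 and 258 in CSE-KO and 16 in each WT library, a 15.2-fold rise (adjusted p = 0.000804). The region chr12:3109867-3110103, with Rab10 as its nearest gene, had 1768, 1721 and 1800 in CSE-KO and 197, 145 and 107 in WT, a 12.1-fold rise. Rises of 10.2-fold each stood at chr4:3082323-3084227 and chr18:3005278-3005951. Chromosomes of the mouse begin with a centromere followed by repeat-rich sequence. In the first 3.5 Mb of the chromosomes, a limit chosen after these values were seen, lay 34 far regions, of which 12 were higher and 1 lower. Without these 34, 1258 far regions were higher and 1289 lower. Whether repeated sequence adds to these values was not tested.

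The leading falls were smaller in size than the leading rises, from 4.78-fold to 6.35-fold. The region chr1:71956993-71957964 lies 304.3 kb from Fn1, which encodes fibronectin, and nearer to Mreg, at 254.8 kb. It had 33, 110 and 44 in CSE-KO and 415, 347 and 300 in WT, and the log2 change was -2.67 ± 0.42 (SE), or 6.35-fold lower (adjusted p = 0.00946). The CSE-KO values differed among themselves by over 3-fold, yet the highest lay far below the lowest WT value. The region chr6:117574260-117574803 lies 406 kb from Cxcl12, a chemokine made by stromal and endothelial cells, and nearer to Znf32, at 266.6 kb. It had 25, 14 and 28 in CSE-KO and 128, 127 and 123 in WT, a 5.66-fold fall (adjusted p = 0.00368). The region chr8:118433235-118434150 inside Cdh13, which encodes the lipid-anchored T-cadherin of endothelium, had 49, 46 and 38 in CSE-KO and 244, 242 and 251 in WT, a 5.47-fold fall (adjusted p = 0.00133). The region chr9:116411128-116411809, 236.1 kb from Tgfbr2, a TGF-beta receptor, had 11, 20 and 21 in CSE-KO and 117, 81 and 88 in WT, a 5.38-fold fall (adjusted p = 0.00444). The WT values were close together at the regions near Cxcl12 and inside Cdh13 and more spread near Fn1 and Tgfbr2, and no CSE-KO value reached a WT value at any of the 4.

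Of the other leading falls, chr18:4208016-4208520, between Bambi, an inhibitor of TGF-beta family receptors, and the kinase gene Map3k8, had 13, 14 and 15 in CSE-KO and 110, 84 and 90 in WT, a 6.35-fold fall. The region chr10:86166860-86167221 inside Syn3, whose body also holds Timp3, an inhibitor of metalloproteinases, had 42, 18 and 36 in CSE-KO and 164, 135 and 147 in WT, a 4.79-fold fall. The remaining falls lay inside Samd12 (6.19-fold), Celf2 (5.95-fold), Col23a1 (5.64-fold) and Dysf (4.78-fold), and outside such bodies near Il12a (5.38-fold) and Fndc1 (5.08-fold). The fall inside Celf2, chr2:7056212-7056813, with 7, 26 and 39 in CSE-KO and 124, 140 and 102 in WT, lost its call without WT replicate 1, 2 or 3 (adjusted p = 0.0782, 0.0801 and 0.0666). The other 23 of the 24 leading changes kept theirs without any 1 library.

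**Figure D3:**
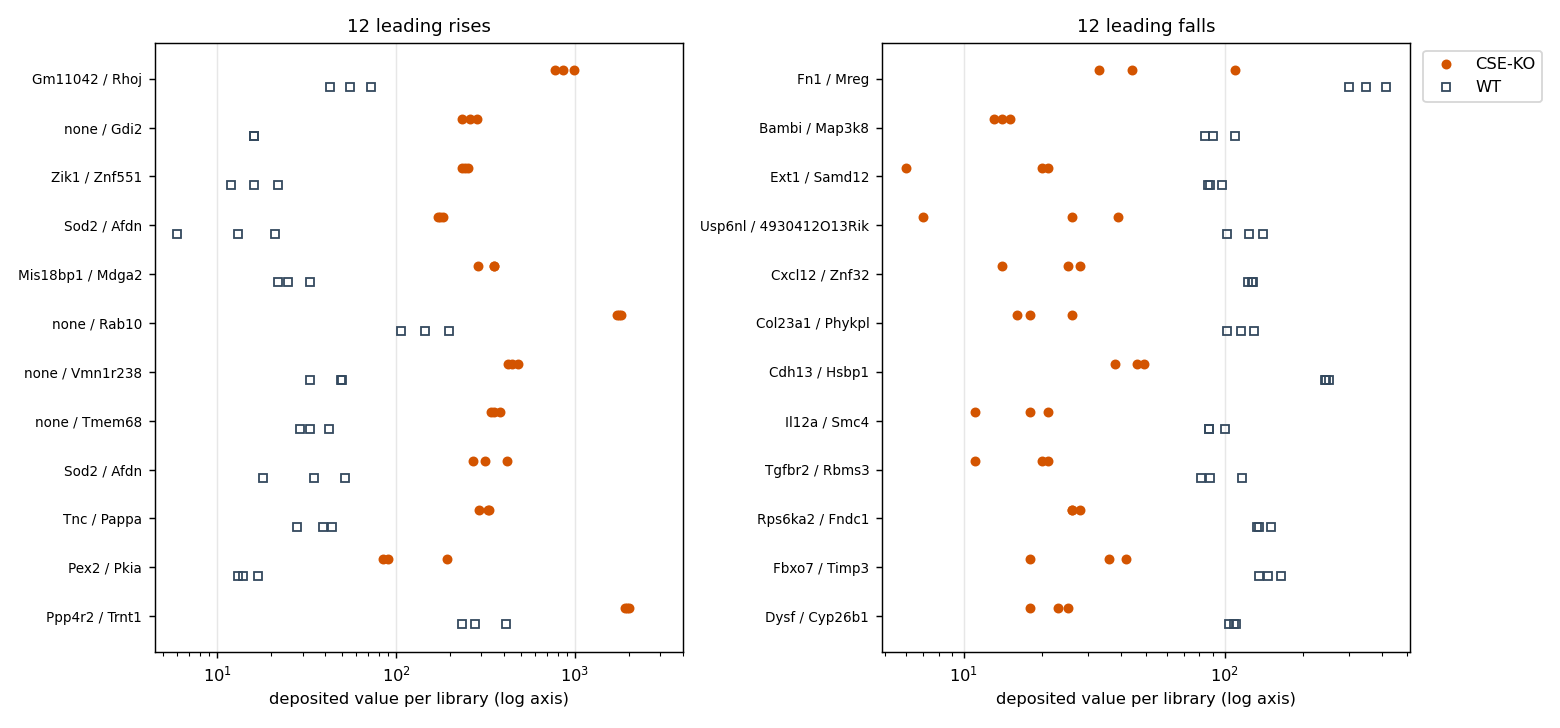
Deposited value per library (log axis) of the 12 leading rises and the 12 leading falls among far regions, CSE-KO as filled circles and WT as open squares, labelled by the nearest start site on each side ("none" where the table has no gene towards the chromosome start). In each row the groups stand apart, by 15.3-fold to 6.55-fold on the left and by 6.35-fold to 4.78-fold on the right.

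The share called in either direction was 12.6% in the weakest of the 5 classes of mean value, 27.9% in the third and 26.1% in the strongest. Of the 5 far regions with the highest mean, those inside Chl1 and near Rab10 rose as given above, and the other 3 passed no test. The region chr9:124422860-124425306 near 2010315B03Rik had 779, 962 and 884 in CSE-KO and 1223, 1211 and 1157 in WT (1.37-fold lower, adjusted p = 0.0943). The regions chr7:106236288-106237223 and chr3:68493130-68494484 differed by 1.09-fold and 1.03-fold. The 3 far regions with the largest distances lay 3090 to 3239 kb from any start in the deposited table, between Got2 and Cdh11, a cadherin gene, and all had lower means in CSE-KO. RefSeq places 2 of them inside Cdh8, another cadherin gene, whose start the table does not have, so these distances hold for the table alone. The call there was at chr8:99125235-99125644, with 96, 57 and 71 in CSE-KO and 135, 169 and 154 in WT (2.07-fold lower, adjusted p = 0.0238). Leaving out CSE-KO replicate 3, or any 1 of the WT replicates 1 to 3, ended this call, with an adjusted p from 0.052 to 0.0888. At the edge of the rule, the 3 far regions nearest to 100 kb, near Parm1, Rsu1 and Rabgap1l, had log2 changes of 0.17, 0.08 and -0.51. The 3 regions just inside it, near E130114P18Rik, Zfp217 and Fndc3b, had 0.12, 0.25 and -0.86.

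Far regions came in runs, and calls within a run tended to point one way. With centres at most 50 kb apart, the 11474 formed 4606 runs, of which 2309 held a single region and 612 held 5 or more. The largest runs lay in and beside Tcf4 (33 regions, 0 higher and 7 lower), Chd7 and Clvs1 (32, 2 higher and 3 lower), Foxp1 (27, 2 and 2), Nfib (26, 1 and 1) and Mast4 (26, 2 and 4). Tcf4, Foxp1 and Nfib encode transcription factors, Chd7 a chromatin remodeller and Mast4 a kinase. Among 509 runs with at least 2 calls, 133 had only higher, 179 only lower and 197 both. Of neighbouring far regions that were both called, 93 of 111 pairs (83.8%) within 5 kb of each other changed in the same direction. This share was 72.8% at 5 to 20 kb, 63.3% at 20 to 50 kb, 59.7% at 50 to 200 kb and 53.6% further apart. These are descriptions, since neighbouring regions share reads, sequence and chromatin.

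The runs described next were chosen by hand after their values were seen, from those with many calls in 1 direction, and they are examples. Others with as many were left out, among them runs in and beside Mgat5, between Mki67 and Mgmt and in and beside Etv6, each with 5 lower and 0 higher. Between Fn1 and Mreg, 15 far regions over 258.3 kb summed to 763, 847 and 785 in CSE-KO and 1510, 1452 and 1392 in WT. Of these 15, 7 fell, and 11 had a negative log2 change. The fall was not even along the run: the changes ran from -2.67 to 0.17, and called regions stood beside others near 0. Without WT replicate 1, 2 or 3 there were 2 calls in each fit, and without CSE-KO replicate 2 there were 4.

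Between Hbs1l and Sgk1, a kinase gene that responds to serum and glucocorticoids, 22 far regions summed to 1034, 1192 and 1188 in CSE-KO and 2397, 2376 and 2245 in WT, with 7 fallen and 0 risen. One of the 7 is the region at the Gm33945 start whose window is printed above. The region with the lowest adjusted p, chr10:21694978-21695763, had 100, 93 and 100 in CSE-KO and 406, 396 and 372 in WT, 3.98-fold lower (adjusted p = 0.00179). The calls here fell to 6 without any 1 of the WT libraries. Between Opa1 and Hes1, a transcriptional repressor downstream of Notch, the 6 regions of a run summed to 156, 143 and 191 in CSE-KO and 489, 505 and 477 in WT. There 5 of 6 fell, by 2.56-fold to 7.59-fold, and without WT replicate 1, 2 or 3 it was 3 of 6.

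Between Foxl1, a forkhead gene, and Fbxo31, 20 far regions summed to 1624, 1499 and 1522 in CSE-KO and 2380, 2322 and 2318 in WT, with 7 lower and 1 higher. Its region chr8:121334518-121335360 had 56, 74 and 56 in CSE-KO and 306, 278 and 282 in WT, 4.63-fold lower (adjusted p = 0.00211). Between Eipr1 and Myt1l, a neuronal zinc finger gene, 13 regions summed to 588, 647 and 651 in CSE-KO and 1098, 1140 and 1062 in WT, with 6 lower and 0 higher. These runs had 2, 3 or 2 and 3, 3 or 3 lower calls without WT replicate 1, 2 or 3. One run rose: between Gpat3, an enzyme of glycerolipid synthesis, and Nkx6-1, a homeobox gene, 8 far regions summed to 1027, 927 and 1090 in CSE-KO and 546, 604 and 521 in WT. Of these, 5 rose, and they did so in each fit without 1 library. Its leading region, chr5:101201958-101202295, had 90, 97 and 133 in CSE-KO and 21, 22 and 20 in WT, 4.83-fold higher (adjusted p = 0.00245).

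**Figure D4:**
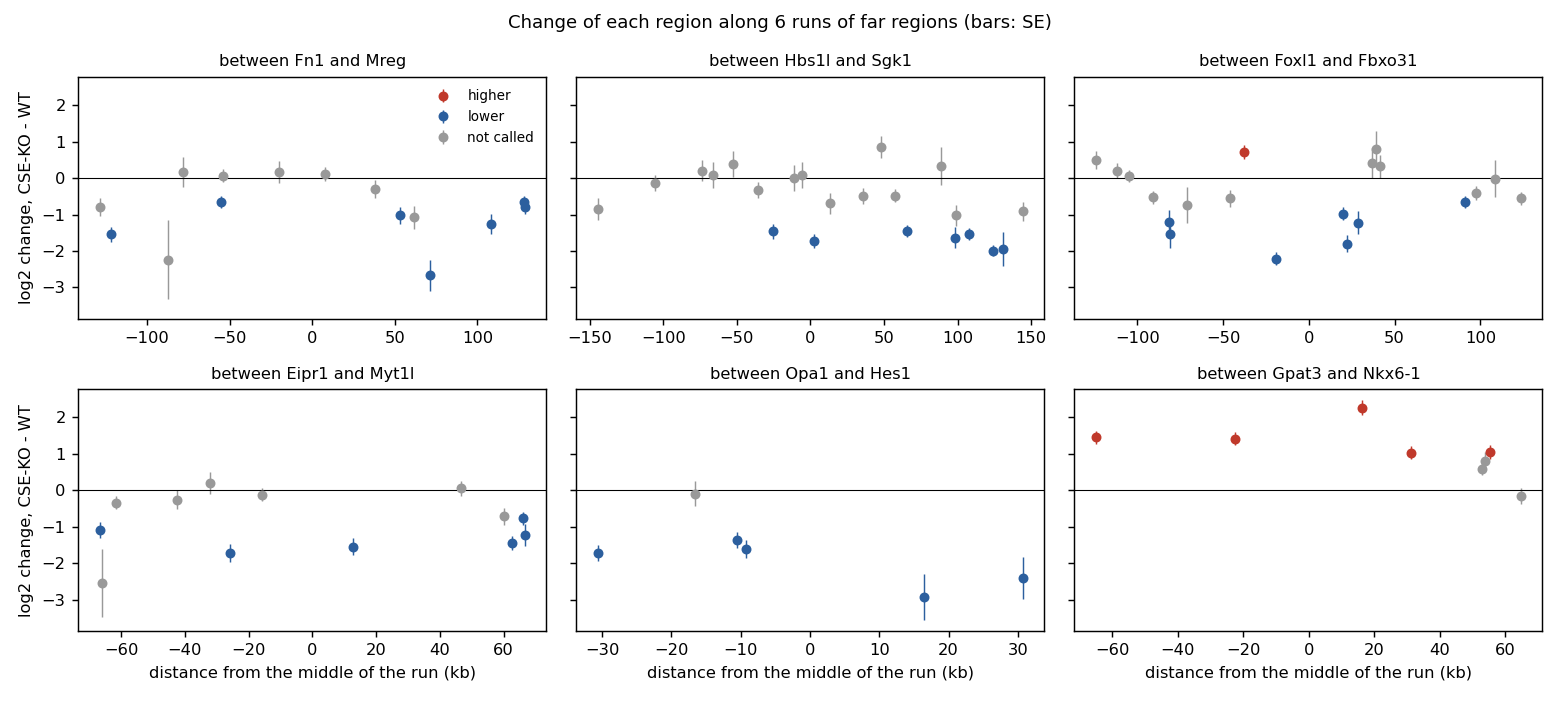
Log2 change (CSE-KO minus WT, bars SE) of each far region along 6 runs, against its distance in kb from the middle of the run, with called regions in red (higher) and blue (lower) and the others in grey. In the run between Gpat3 and Nkx6-1 all but 1 of the 8 regions lie above 0, and in that between Opa1 and Hes1 all 6 lie below it.

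Inside RefSeq protein-coding bodies, 8.78% of the 5240 tested far regions were higher and 11.4% lower, close to the 7.52% and 11.5% of other distal regions. They fell into 1278 genes. Fits without WT replicate 1, 2 or 3 gave 207, 198 or 184 higher and 195, 192 or 203 lower inside bodies. The excess of lower calls was thus lost without WT replicate 1 or 2 and stayed, though smaller, without WT replicate 3. Of the 134 genes with at least 10 of them, 65 had more lower than higher calls and 30 more higher than lower, and in the same fits 42, 43 or 46 had more lower and 27, 25 or 21 more higher. Counted by kind, 36 had only lower calls, 13 only higher, 69 both and 16 none. The genes named here were chosen after their values were seen. Nav2, a neuron navigator gene, held 31 far regions, of which 11 fell and 0 rose, and without WT replicate 1, 2 or 3 it was 7, 8 or 7. Its leading region, chr7:49135130-49135834, fell 4.03-fold, to 31.0 ± 2.0 in CSE-KO, against 128 ± 11.4 in WT (SD, n = 3 each). Tcf4, an E-protein transcription factor, held 29, of which 6 fell and 0 rose, but without WT replicate 1, 2 or 3 the calls were 0, 1 or 0. Arhgap26, which encodes a GTPase-activating protein, had 7 lower and 1 higher of 18, and Etv6, an ETS-family repressor, 5 lower and 0 higher of 12. Without any 1 of the WT libraries Arhgap26 had 1 or 2 lower calls and Etv6 1 or 2, and without CSE-KO replicate 2 or 3 Arhgap26 had 4.

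Other long genes held both or mostly rises. Pde4d, a cyclic AMP phosphodiesterase gene with the most far regions, 45, had 8 lower and 4 higher. Its leading rise, chr13:109694057-109694819, reached 134 ± 34.5 in CSE-KO, against 35.7 ± 4.04 in WT (3.61-fold, adjusted p = 0.00481). The fall that led it, chr13:109544714-109545042, had 15.0 ± 5.0 in CSE-KO and 45.7 ± 3.22 in WT (3.01-fold, adjusted p = 0.00951). Both stood inside the same gene. Etl4 had 5 higher and 1 lower of 20, Sox5, an HMG-box transcription factor, 5 higher and 2 lower of 14, and Plxna4, a semaphorin co-receptor, 4 higher and 1 lower of 14. Without any 1 of the WT libraries each of these 4 genes had at most 3 higher and 2 lower calls. Without CSE-KO replicate 1 Etl4 had 2 higher and 3 lower, without CSE-KO replicate 1 or 3 Plxna4 had 2 higher and 1 lower, and without CSE-KO replicate 2 Pde4d had 4 of each. Kcnip1, a potassium channel subunit, held 19 far regions with no call in either direction by limma.

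**Figure D5:**
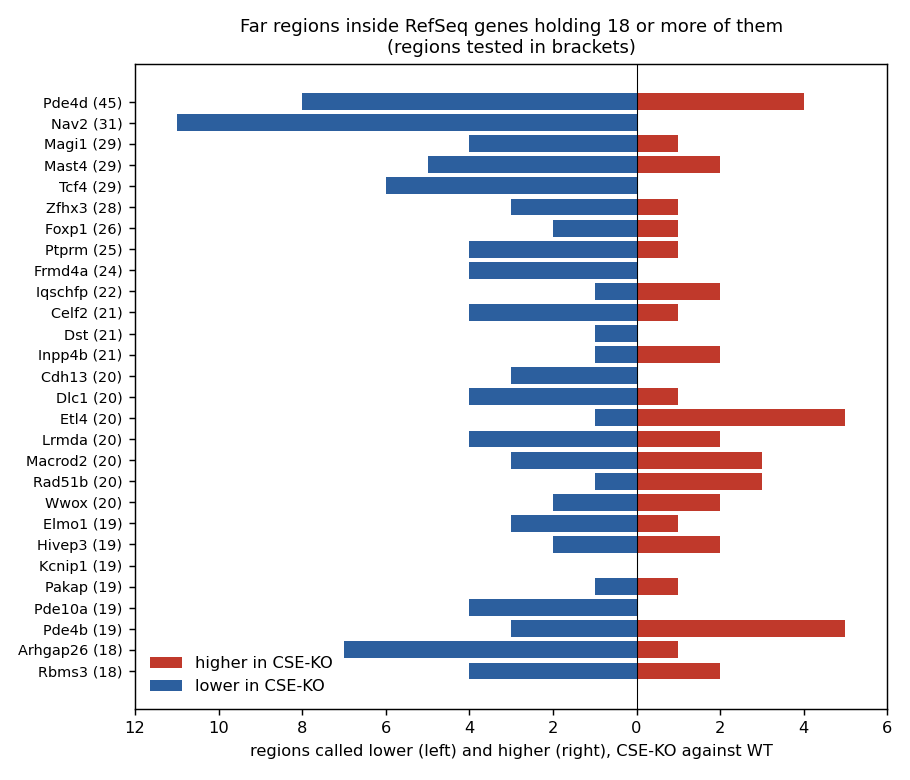
Number of far regions called lower (blue, to the left) and higher (red, to the right) in CSE-KO against WT inside each RefSeq protein-coding gene that holds 18 or more tested far regions, with the number tested in brackets. Nav2 shows 11 lower and 0 higher, Pde4d 8 lower and 4 higher, and Kcnip1 none.

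Far regions were then grouped by the genes that flank them, using lists of genes of vascular and developmental interest. Beside endothelial transcription factors, 60 of 391 far regions were lower (15.3%) and 27 were higher (6.91%), and their log2 changes had a median of -0.22. The lower share stood above, and the higher share below, those of far regions as a whole (11.3% and 11.1%), and no test of the list was made. Of its 40 genes, 21 flank a far region. Foxo1, a forkhead factor downstream of AKT, had 5 lower and 0 higher of 30, and Etv6 7 lower and 1 higher of 22. Prox1, the factor of lymphatic fate, had 3 lower and 0 higher of 14, Ets2 4 lower and 0 higher of 6, and Fli1, an ETS factor of endothelial genes, 3 lower and 0 higher of 7. Nr2f2, the venous factor COUP-TFII, had 8 lower and 4 higher of 36. Erg, an ETS factor that marks endothelium, had 4 lower and 2 higher of 30. The list had 16, 18 or 18 lower and 13, 12 or 13 higher without WT replicate 1, 2 or 3, so the excess of lower calls was smaller in those fits.

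The most significant regions of that list went both ways. A region between Nr2f2 and Mctp2, chr7:71790658-71790821, had 41, 43 and 33 in CSE-KO and 6, 7 and 3 in WT, 6.55-fold higher (adjusted p = 0.00365). It lies 1424 kb from Nr2f2 and 515.9 kb from Mctp2. A region 238.5 kb from Klf4, a flow-responsive factor, chr4:55770807-55771197, had 88, 70 and 56 in CSE-KO and 12, 8 and 4 in WT, 8.51-fold higher (adjusted p = 0.00447). A region between Mpdz (484.2 kb away) and Nfib (778.7 kb away), chr4:81926720-81927323, had 49, 43 and 49 in CSE-KO and 152, 121 and 127 in WT, 2.79-fold lower (adjusted p = 0.00435). The groups did not overlap at any of the 3. Ets1, an ETS factor that is also made in lymphocytes, went against the list, with 6 higher and 1 lower of 18.

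Beside endothelial surface and junction genes, 12 of 124 far regions were higher and 12 lower (9.68% each), near the shares over all tested regions (7.70% and 9.60%) and below those of far regions as a whole (11.1% and 11.3%). Those beside Cdh5, the VE-cadherin gene, had 2 lower and 0 higher of 11, those beside Flt1, a VEGF receptor, 2 lower and 0 higher of 7, and those beside Nrp2, a co-receptor for VEGF and semaphorins, 3 higher and 0 lower of 17. A region 161.2 kb from Ednrb, the endothelin B receptor, chr14:104005441-104005768, had 70, 60 and 67 in CSE-KO and 0, 5 and 2 in WT, a log2 change of 4.67 ± 0.58 (SE, adjusted p = 0.00526). A region 124.7 kb from Emcn, an endothelial sialomucin, chr3:137216251-137216581, had 60, 90 and 84 in CSE-KO and 21, 11 and 8 in WT, 5.83-fold higher (adjusted p = 0.00647). Both rose from low WT values. A further one, chr8:127962963-127963180 near Nrp1, rose 2.07-fold but lost its call without WT replicate 2 (adjusted p = 0.0508). For these genes, leaving out WT replicate 1, 2 or 3 gave 0, 1 or 1 lower calls and 5, 4 or 7 higher.

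Beside ligands and regulators of vessels, 47 of 395 far regions were higher (11.9%) and 42 lower (10.6%), near the shares of far regions as a whole. Tgfbr2, grouped here, had 9 lower and 3 higher of 39, and Cxcl12 5 lower and 1 higher of 16. Sema3c, a secreted guidance factor, had 4 higher and 0 lower of 27, and Angpt1, the ligand that activates the receptor Tek, 4 higher and 0 lower of 17. A second region between Cxcl12 and Znf32, chr6:117596256-117596672, had 13, 21 and 16 in CSE-KO and 79, 70 and 76 in WT, 4.37-fold lower (adjusted p = 0.00307). It lies in the same interval as the leading fall described above, 427.9 kb from Cxcl12 and 244.7 kb from Znf32. Between Id2, a BMP-responsive inhibitor of basic helix-loop-helix factors, and Rnf144a, the region chr12:26079012-26079475 had 131, 152 and 161 in CSE-KO and 27, 23 and 27 in WT, 5.58-fold higher (adjusted p = 0.00133). This region lies 982.1 kb from Id2 and 336.0 kb from Rnf144a. Without WT replicate 1, 2 or 3 the list had 24, 25 or 19 higher and 17, 16 or 17 lower, and scaled to each library's total it had 41 higher and 45 lower.

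Developmental transcription factors of gene-poor intervals flanked 730 tested far regions, with 76 higher (10.4%) and 100 lower (13.7%), against 11.1% and 11.3% of far regions as a whole. Myc, whose surroundings are known for distant enhancers, had the most, 81, with 10 higher and 9 lower, around a median of 0.02 on the log2 scale. Dach1 had 6 higher and 0 lower of 19, while Tshz2 had 5 lower and 1 higher of 13 and Klf12 5 lower and 1 higher of 15. Tcf7l2, a Wnt effector, had 23 far regions and no call in either direction by limma. A region 154.1 kb from Meis1, a homeobox factor, chr11:18864807-18865033, had 56, 52 and 46 in CSE-KO and 5, 2 and 6 in WT, 10.4-fold higher (adjusted p = 0.00299). A region 311.3 kb from Tshz3, chr7:37009129-37009616, had 36, 31 and 26 in CSE-KO and 106, 107 and 100 in WT, 3.32-fold lower (adjusted p = 0.00343). In fits without WT replicate 1, 2 or 3 this list had 30, 27 or 34 higher and 30, 29 or 33 lower.

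Genes of AP-1 and of MAP kinase feedback flanked 144 far regions, with 16 higher and 16 lower (11.1% each), near the shares of far regions as a whole. Dusp6, a phosphatase of ERK, had 3 higher and 2 lower of 18, with a median log2 change of -0.30. The 3 that rose lie between Dusp6 and Kitlg, which encodes stem cell factor, and 2 of them are neighbours. These 2 lie 485.7 and 484.9 kb from Dusp6 and nearer to Kitlg, at 266.7 and 267.5 kb. The first, chr10:99748732-99749039, had 95, 78 and 94 in CSE-KO and 12, 13 and 16 in WT, 6.15-fold higher (adjusted p = 0.00143), and the second, chr10:99747902-99748323, rose 4.19-fold. The third, chr10:99396713-99397158, rose 3.06-fold. Genes of stress, redox and cysteine metabolism flanked 57 far regions, with 3 higher (5.26%) and 5 lower (8.77%). A region 180.6 kb from Gclm, a subunit of the enzyme of glutathione synthesis, chr3:122064613-122065329, had 33, 32 and 28 in CSE-KO and 62, 66 and 81 in WT, 2.20-fold lower (adjusted p = 0.0091). This region lies inside Abca4, and the start of Arhgap29 is nearer to it, at 112.4 kb. Without WT replicate 1, 2 or 3 the AP-1 list had 6, 5 or 5 calls each way, and the stress list had 0, 0 or 1 higher and 3 lower each time. Slc7a11, the cystine transporter, had 8 far regions and no call by limma.

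Lists of other cell types were kept beside these. Leukocyte genes flanked 36 far regions, of which 12 were higher (33.3%) and 1 lower (2.78%). Among far regions as a whole 11.1% were higher and 11.3% lower, and no test of the list was made. The calls lay beside Ikzf2, a zinc finger factor of lymphocytes (6 higher of 17), and Ets1, which the endothelial list also holds. The region chr1:70475938-70476286, between Ikzf2 and Bard1 and inside Spag16, had 77, 95 and 71 in CSE-KO and 13, 11 and 15 in WT, 5.85-fold higher (adjusted p = 0.00179). Promoter regions of leukocyte markers, given above, were lower in CSE-KO by their sum, and 6 of those 8 markers had no promoter region. Lung epithelial genes flanked 2 far regions, neither of which was called.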

How the data were processed

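The authors deposited a table of regions with mm10 coordinates, assigned genes and a value per library. The deposited values are a score: whole numbers that the authors scaled between libraries and rounded, judging from the values themselves, since near-equal median ratios and skipped whole numbers mark read counts divided by a size factor. The submitters' processing notes name STAR 2.7.3a, Trimmomatic 0.39, DESeq2 1.26.0 and Picard 3.1.1 with build mm10; what each did, the peak caller and any Tn5 shift are not stated there. Reads behind the values are unknown, so no interval for counting error is given. Coordinates are printed as the deposited table gives them, and distances are in kb from a region's centre to the gene's start or, on the minus strand, its stop. The deposited distance of a region to the start site of its assigned gene, in bp, set the promoter regions within 1 kb.

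Regions averaging 5 or more across the 6 libraries (58129) were fitted on log2(value + 1) with limma 3.58.1 (R 4.3.3), trend and robust off, two-sided, as CSE-KO minus WT, and called at a Benjamini-Hochberg adjusted p under 0.05 over all of them. Fold changes are on that scale, which understates weak regions. A model for read counts was not used because the values are scaled. The script was tested on simulated data. The groups and replicate numbers come from the titles. Same-numbered libraries did not deviate together (correlations of -0.0059, -0.0105 and 0.0105), so the numbers were not treated as pairs.

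The far regions, the gene lists and the comparisons were chosen with earlier results of these data known. Regions named as leading changes are the 12 largest rises and 12 largest falls among called far regions without overlap between groups and with at least the median mean value of all tested regions, 1 per 100 kb. Named too are the 5 strongest, the 3 farthest, the 3 on each side of the 100 kb limit, the 5 largest runs, and up to 3 by smallest p beside the genes of each list. Where others appear, the text says that their values were known when they were picked. Gene bodies, start sites and promoter windows are from RefSeq (GRCm38.p6); windows of chromosome 18 and the sequence of the regions themselves were not used here. Alternatives were other added constants, filters, scalings and limma options, a replicate block, each library left out, and other definitions of the far regions.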

Additional observations from a re-analysis of the deposited data

How the results depend on the processing

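The count of far regions called (2560, with 1270 higher and 1290 lower) stayed within 1.5 times under the other added constants, filters, scalings and limma options and without any 1 CSE-KO library. With the replicate number as a block, which the labels do not tie to shared animals or days, 1678 were called, 857 higher and 821 lower. Over all tested regions the block gave 10.3% called, against 17.3% without it. The leave-outs of 1 library ran from 1004 to 2282 called, 552 to 1074 higher and 432 to 1253 lower. Over all tested regions these leave-outs ran from 6.06% to 15.3% called. Far regions taken beyond 200 kb gave 1376 called (771 higher, 605 lower), beyond 50 kb 4080 called (2224 lower), without bodies of the table's genes 788 lower, and without RefSeq protein-coding bodies, a definition added after the data were seen, 1503 called (810 higher, 693 lower); the number of far regions changes with each definition. The median log2 change of -0.0356 became -0.0032 with a mean of at least 20, -0.0912 scaled to the total (where the median of all regions was -0.0603), 0.0049 with quantile normalization, 0.0105 beyond 200 kb and 0.0025 without the table's gene bodies, so its sign is not settled. The difference in the share of values, -0.897 points, was -0.30 without the 6 regions over 10000 in the total, -0.211 beyond 200 kb, -1.94 beyond 50 kb, -0.368 without the table's gene bodies, -0.349 without RefSeq bodies, and -1.03 to -0.825 without 1 library. Of 956 comparisons on 64 named regions, 939 kept their direction and side of the threshold, 8 gained a call, 9 lost one (at 3 regions) and 0 reversed; the fall near Got2 and Cdh11 also lost its call under the block (adjusted p = 0.0622). No cause of these shifts was tested. Exact depth is unknown, and weak regions near the filter rest on few reads. The CSE-KO values move in larger steps, which means fewer reads there if the values are scaled counts.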

Other observations

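Far regions beside adhesion genes of large loci were 50 higher (14.1%) and 39 lower (11.0%) of 355, or 45 and 45 when scaled to each library's total. Among all far regions 11.1% were higher and 11.3% lower. Pcdh9, a protocadherin gene, stood out with 13 higher and 2 lower of 29 and a median log2 change of 0.77, and was picked here after its values were seen. Flrt2 had 7 of each of 40, Cdh11 3 lower and 0 higher of 18, and Pcdh17 2 lower and 1 higher of 28. The region chr15:46102869-46103326, between Sybu and Csmd3, had 90, 98 and 100 in CSE-KO and 25, 23 and 29 in WT, 3.65-fold higher (adjusted p = 0.00274, limma). Beside mural, fibroblast and matrix genes 21 were higher (15.4%) and 17 lower (12.5%) of 136 (19 and 20 when scaled to the total). Inhba, which encodes a subunit of activin, had 8 higher and 1 lower of 21, and Igfbp5 had 0 higher and 1 lower of 21. A region 538.4 kb from Inhba, chr13:16550081-16550335, had 62, 49 and 72 in CSE-KO and 17, 16 and 19 in WT, 3.35-fold higher (adjusted p = 0.00418, limma). Without WT replicate 1, 2 or 3 the adhesion list had 23, 22 or 19 higher and 13, 11 or 12 lower, and the matrix list 11, 8 or 7 higher and 5, 3 or 5 lower.

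By chromosome, the share of far regions called ran from 17.5% on chromosome 19 to 24.7% on chromosome 10. On chromosome 7, 8.78% were higher and 15.7% lower, and on chromosome 17 7.19% and 13.4%. On chromosome 10, 14.9% were higher and 9.81% lower, and on chromosome 4 13.6% and 9.57%. These differences between chromosomes were not tested.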
